A study of Mus musculus with 6 samples.

Results

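The genes described here are Neurog2, Atoh7, Neurod4, Foxn4, Insm1 and Fgf15, which encode 5 transcription factors and 1 secreted growth factor that take part in the formation of neurons in the retina. They were chosen by name, and a gene with several probe sets annotated to it alone was read from the one whose log2 values had the highest mean over the 6 arrays. All 6 genes were measured, by 8 probe sets in total, among 12393 genes that had at least 1 such probe set. RNA came from whole eyeballs of mouse pups at postnatal day 1, with 3 eyeballs labelled Brg1 cKO and 3 labelled wild type, and each eyeball was hybridised to its own Affymetrix expression array. Brg1, the product of Smarca4, is an ATPase that remodels chromatin. The Brg1 cKO pups were homozygous for a floxed Brg1 allele (Brg1 flox/flox) and carried the Le-Cre transgene. The labels call the controls wild type, the study's controls for this cross were littermates with floxed Brg1, and the genotype behind each control array was not given in the sources used here. Le-Cre is driven by a regulatory element of Pax6 and acts in the head surface ectoderm, which gives rise to the lens, the corneal epithelium and the eyelid epidermis. The study does not list the neural retina, where the 6 genes are transcribed, among its sites of action. No control that carried Le-Cre alone was among the arrays. The study describes deletion in this cross as incomplete in many embryos, and it reports occasional deletion in the germline. It also describes a thicker neural retina in mutant embryos and misfolded retina in mutants after birth. Severity varied, and some mutant embryos showed no obvious defect. The phenotype of each eyeball was not given in the sources used here. Whether the retinas of these eyeballs had lost Brg1 was not measured here. Per the labels the mice had a mixed genetic background. No value comes from isolated retina: in whole eyeballs, fewer cells of a type and less RNA per cell cannot be told apart.

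Retinal neurons arise from dividing progenitor cells, which leave the cell cycle in waves and become ganglion cells, horizontal cells, cones, amacrine cells, rods, bipolar cells and Müller glia. Proneural transcription factors of the basic helix-loop-helix class bind a short DNA motif called the E-box, turn on Notch ligands in the cell that will become a neuron, and so keep the neighbouring cells in the progenitor state through Notch and its DNA-binding partner Rbpj. In the newborn mouse retina the peripheral and outer parts are still dividing, so progenitors and freshly made neurons are both present.

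The arrays held the retinal RNA that the comparison needs. The retina markers Rax, Pax6, Six6, Crx, Isl1 and Tfap2b lay above log2 4.84, the 25th percentile of all values, on every array. Correlations between arrays of 1 group ran from 0.969 to 0.988 over all probe sets, and no pair was identical. The targeted gene gave no clear check of the labels. The brightest Smarca4 probe set read 10.11, 9.82 and 9.81 in wild type, against 10.35, 9.93 and 9.98 in Brg1 cKO, and a second read 9.21, 8.37 and 8.67 against 7.82, 7.79 and 8.55. Neither passed the test (limma adjusted p = 0.866 and 0.598). Whether either probe set lies in the deleted part of the gene was not given in the sources used here. Genes of the X inactivation centre and the Y chromosome showed that Brg1 cKO replicate 1 was a male pup and that the other 5 arrays came from females.

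The 250 bases before the transcription start are shown for 3 of the genes, because Atoh7 differed from the others in the motifs it held there. RefSeq promoters (GRCm38.p6) were matched for 4 of the 6 genes, Neurog2, Atoh7, Neurod4 and Foxn4, with 2 start sites for Neurod4. Insm1 and Fgf15 were not matched. Each sequence is written 5′ to 3′ on the strand of the gene and ends at the base before the start. Capitals mark every match of the E-box CANNTG, the TATA box TATAAA and the Rbpj core TGGGAA, searched on both strands, and no matches overlapped. The windows are chr10:63099535-63099784 on the plus strand for Atoh7, chr5:114273762-114274011 on the minus strand for Foxn4 and chr10:130280255-130280504 on the minus strand for the first start site of Neurod4.
Atoh7: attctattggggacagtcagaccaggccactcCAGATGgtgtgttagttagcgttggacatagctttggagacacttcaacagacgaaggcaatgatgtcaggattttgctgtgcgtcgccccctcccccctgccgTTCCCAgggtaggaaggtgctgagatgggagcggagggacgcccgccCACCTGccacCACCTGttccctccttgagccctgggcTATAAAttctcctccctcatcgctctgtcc
Foxn4: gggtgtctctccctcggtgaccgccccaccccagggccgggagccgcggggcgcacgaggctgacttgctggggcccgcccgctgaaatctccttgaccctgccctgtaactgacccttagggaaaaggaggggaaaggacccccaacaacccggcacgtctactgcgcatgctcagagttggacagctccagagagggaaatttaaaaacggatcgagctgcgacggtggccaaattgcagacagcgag
Neurod4: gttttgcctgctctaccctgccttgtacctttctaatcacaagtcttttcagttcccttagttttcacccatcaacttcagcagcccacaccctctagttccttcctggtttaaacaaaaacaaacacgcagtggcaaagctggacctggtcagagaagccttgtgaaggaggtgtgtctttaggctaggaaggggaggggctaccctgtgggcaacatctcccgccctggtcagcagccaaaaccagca
The Atoh7 window held 3 E-boxes, CAGATG beginning 218 bases before the start and CACCTG beginning 67 and 57 bases before it. It also held TATAAA 30 bases before the start and the Rbpj core on the other strand, TTCCCA, 114 bases before it. The windows of Neurog2, Neurod4 and Foxn4 held none of the 3 motifs. Among 32851 windows of the same length, 66.2% held at least 1 E-box and 12.2% held 3 or more, 12.4% held TATAAA and 21.6% held the Rbpj core. These matches are descriptions of the sequence, and nothing about binding was measured here.

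None of the 6 genes differed between Brg1 cKO and wild type in the limma test. The test called 115 of 22626 probe sets, which is 0.508% of them, at an adjusted p under 0.05. By the unadjusted p 1 of the 6 genes, Fgf15, passed 0.05, where 8.4% of all probe sets did. With the added demand of a fold over 1.5 none of the 6 passed, against 6.48% of probe sets. Template matching as run here, after the study's rule for choosing genes, also called none of them, against 3.62% of probe sets. The study reported more genes by this rule than were called here, so this result does not stand for its own list. No gene had groups that did not overlap, a pattern seen in 13.7% of probe sets. The mean of all 6 genes was lower in Brg1 cKO, by differences of -0.54 to -0.04 on the log2 scale, and 47.1% of all genes had a lower mean there. All 6 passed the filter on dim probe sets that was run as an alternative.

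**Figure D1:**
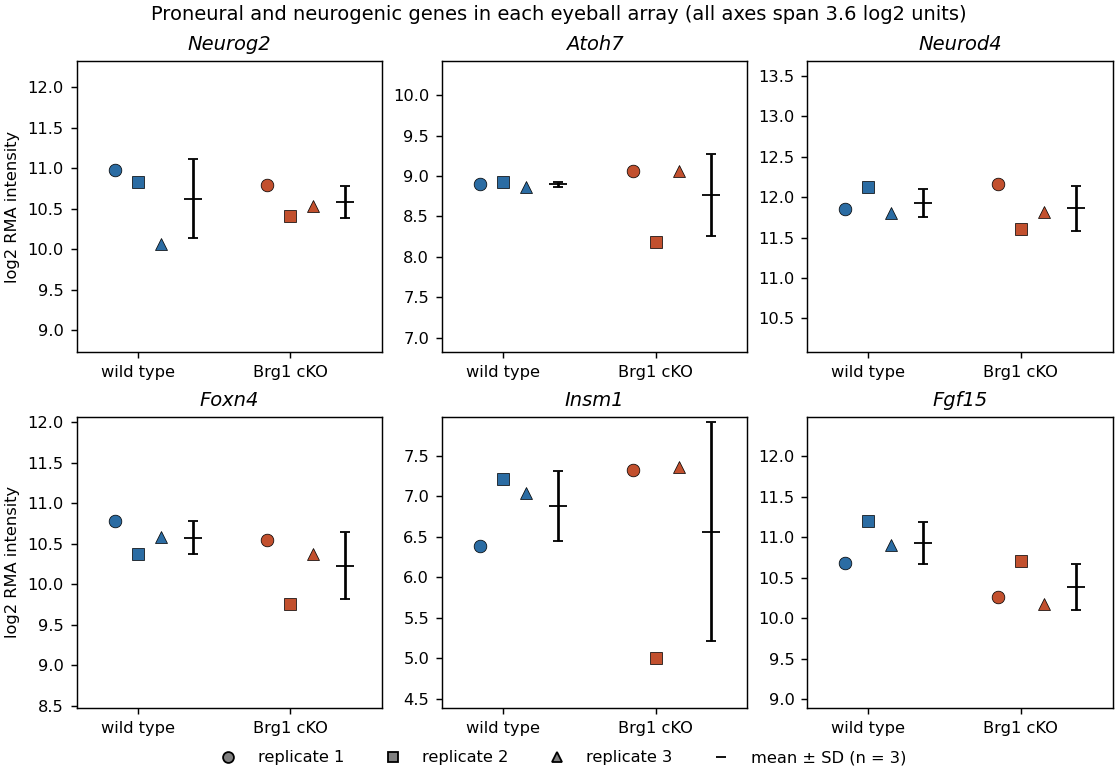
Log2 RMA intensity (y axis) of the 6 genes in each of the 3 wild-type and 3 Brg1 cKO eyeballs, with the marker shape giving the replicate and bars giving the mean ± SD (n = 3); every y axis spans the same number of log2 units. Brg1 cKO replicate 2 was the lowest point for Atoh7, Neurod4, Foxn4 and Insm1, while Fgf15 was lower in the other Brg1 cKO eyeballs.

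Neurog2 encodes a proneural factor of progenitor cells close to their last division. Its log2 intensity was 10.98, 10.83 and 10.07 in the wild-type eyeballs, against 10.80, 10.41 and 10.54 in the Brg1 cKO eyeballs, in the order of replicates 1 to 3. The Brg1 cKO eyeballs all lay inside the range of the wild type, and the lowest value belonged to wild-type replicate 3. The difference of the means, Brg1 cKO minus wild type, was -0.04 with an SE of 0.27 and a 95% interval from -0.68 to 0.59 (limma adjusted p = 0.979). Without Brg1 cKO replicate 2 it was 0.04. Neurog2 was the only one of the 6 genes whose SD was smaller in Brg1 cKO (0.20) than in wild type (0.48).

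Atoh7 encodes the factor that retinal progenitors need to make ganglion cells. Its values were 8.90, 8.93 and 8.86 in wild type, against 9.06, 8.18 and 9.06 in Brg1 cKO. The wild-type eyeballs were nearly alike, with an SD of 0.03. Brg1 cKO replicates 1 and 3 lay above all of them and replicate 2 lay below all of them, so the groups spread in both directions from the same level. The difference was -0.13, with an SE of 0.26 and a 95% interval from -0.75 to 0.49 (limma adjusted p = 0.933), and it turned to 0.16 without Brg1 cKO replicate 2. A second Atoh7 probe set was dimmer, at 6.63, 6.27 and 6.10 in wild type, against 6.19, 5.57 and 6.04 in Brg1 cKO, and again had its lowest value in Brg1 cKO replicate 2. Its difference of -0.40 with an SE of 0.23 did not pass (limma adjusted p = 0.737).

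Neurod4, also called Math3, encodes a basic helix-loop-helix factor of newly formed neurons that acts in the amacrine and bipolar lineages. It read 11.85, 12.12 and 11.80 in wild type, against 12.16, 11.60 and 11.82 in Brg1 cKO. Replicate 1 of Brg1 cKO was the highest of the 6 eyeballs and replicate 2 the lowest, and the wild type lay between them. The difference was -0.06, with an SE of 0.21 and a 95% interval from -0.54 to 0.42 (limma adjusted p = 0.963), the narrowest interval of the 6 genes. It was 0.07 without Brg1 cKO replicate 2. A second Neurod4 probe set pointed the other way, with 3.94, 3.93 and 3.80 in wild type, against 4.94, 4.33 and 4.04 in Brg1 cKO. All 3 Brg1 cKO values lay above the wild type there, but 5 of the 6 values were under the 25th percentile of 4.84. Its difference of 0.54 had an SE of 0.25 (limma adjusted p = 0.647).

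Foxn4 encodes a forkhead factor that progenitors need to make amacrine and horizontal cells. It read 10.78, 10.37 and 10.58 in wild type, against 10.55, 9.76 and 10.38 in Brg1 cKO. Only Brg1 cKO replicate 2 lay outside the wild-type range, 1.76-fold below the wild-type mean. The difference was -0.35, with an SE of 0.25 and a 95% interval from -0.93 to 0.24 (limma adjusted p = 0.788). It kept its sign without that eyeball, at -0.11, and in all 14 alternative limma settings.

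Insm1 encodes a zinc-finger factor that is switched on for a short time as cells leave division and become neurons or endocrine cells. It read 6.39, 7.21 and 7.04 in wild type, against 7.33, 5.01 and 7.36 in Brg1 cKO. Brg1 cKO replicates 1 and 3 were the highest of the 6 eyeballs and replicate 2 the lowest by far. In that eyeball Insm1 lay 3.64-fold below the wild-type mean, and 0.468% of all genes were as low there relative to wild type. The difference was -0.31 with an SE of 0.62, and the 95% interval from -1.77 to 1.15 was the widest of the 6 genes (limma adjusted p = 0.933). Without replicate 2 the difference was 0.47.

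Fgf15 encodes a secreted fibroblast growth factor that is made by progenitors of the embryonic and newborn retina. It read 10.68, 11.20 and 10.90 in wild type, against 10.26, 10.71 and 10.18 in Brg1 cKO. Replicates 1 and 3 of Brg1 cKO lay below all wild-type eyeballs, while replicate 2 lay just above wild-type replicate 1, so the groups overlapped by 1 eyeball. The mean was 10.93 ± 0.26 in wild type and 10.39 ± 0.29 in Brg1 cKO (SD, n = 3). The difference of -0.54 had an SE of 0.22 and was a 1.46-fold lower level, with a 95% interval from 0.477 to 0.987 of wild type. It did not pass after adjustment over all probe sets (limma unadjusted p = 0.044, adjusted p = 0.582), and the exact permutation test, which cannot go below 0.1 with 3 against 3, gave p = 0.2 (two-sided). The sign held in all 14 alternative limma settings, with differences from -0.71 to -0.41 and adjusted p from 0.385 to 0.844.

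**Figure D2:**
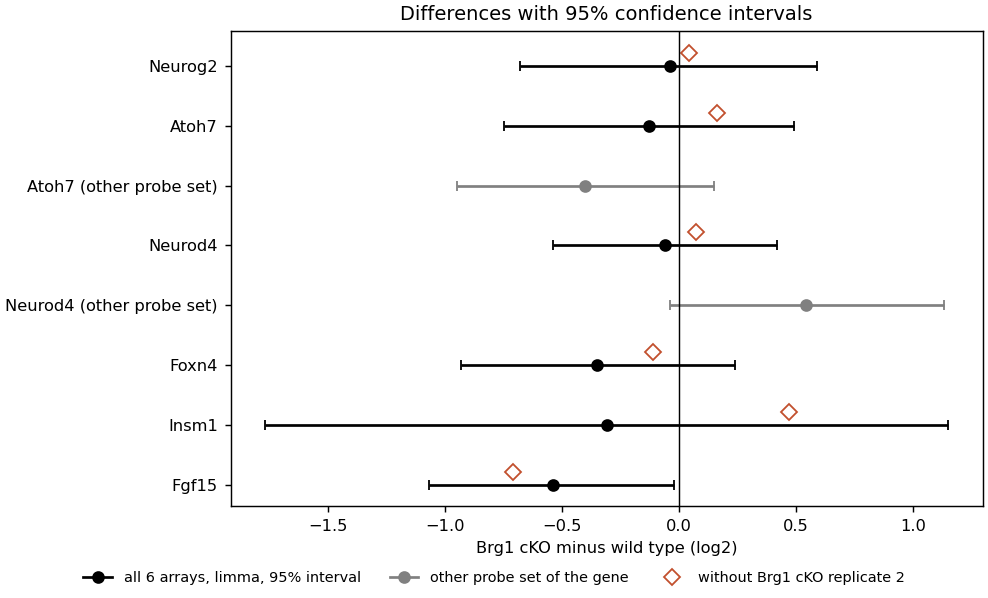
Difference in mean log2 intensity, Brg1 cKO minus wild type (x axis), for the 6 genes and the other probe sets of Atoh7 and Neurod4, with limma 95% confidence intervals over 3 against 3 arrays; open diamonds give the difference without Brg1 cKO replicate 2. The diamonds of Neurog2, Atoh7, Neurod4 and Insm1 lie above 0 and those of Foxn4 and Fgf15 below it.

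The intervals give the range of change that the arrays leave possible for each gene. For Neurog2, Atoh7, Neurod4 and Foxn4, 4 of the 6 genes, the whole interval lay within a 2-fold change in either direction. For Insm1 it did not, on either side, and for Fgf15 the lower end passed 2-fold. These are intervals for single genes, not adjusted for the number of probe sets.

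The 6 genes were not low in the same eyeballs. Relative to the mean of the wild type, replicate 2 of Brg1 cKO was at -0.72 for Atoh7, -0.32 for Neurod4, -0.82 for Foxn4 and -1.87 for Insm1, and these 4 genes had their lowest value of all 6 arrays there. That array was the lowest for 25.5% of all genes. Fgf15 ran the other way, at -0.67, -0.22 and -0.75 in replicates 1 to 3. Neurog2 lay at 0.17, -0.22 and -0.09, inside the spread of its wild-type values. The median of the 6 differences was -0.22, and it was 0.05 without Brg1 cKO replicate 2, when 2 of the 6 genes, Foxn4 and Fgf15, still had a lower mean in Brg1 cKO. For 5 of the 6 genes the Brg1 cKO eyeballs spread more widely than the wild type (larger SD), which was the case for 66.8% of all genes.

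**Figure D3:**
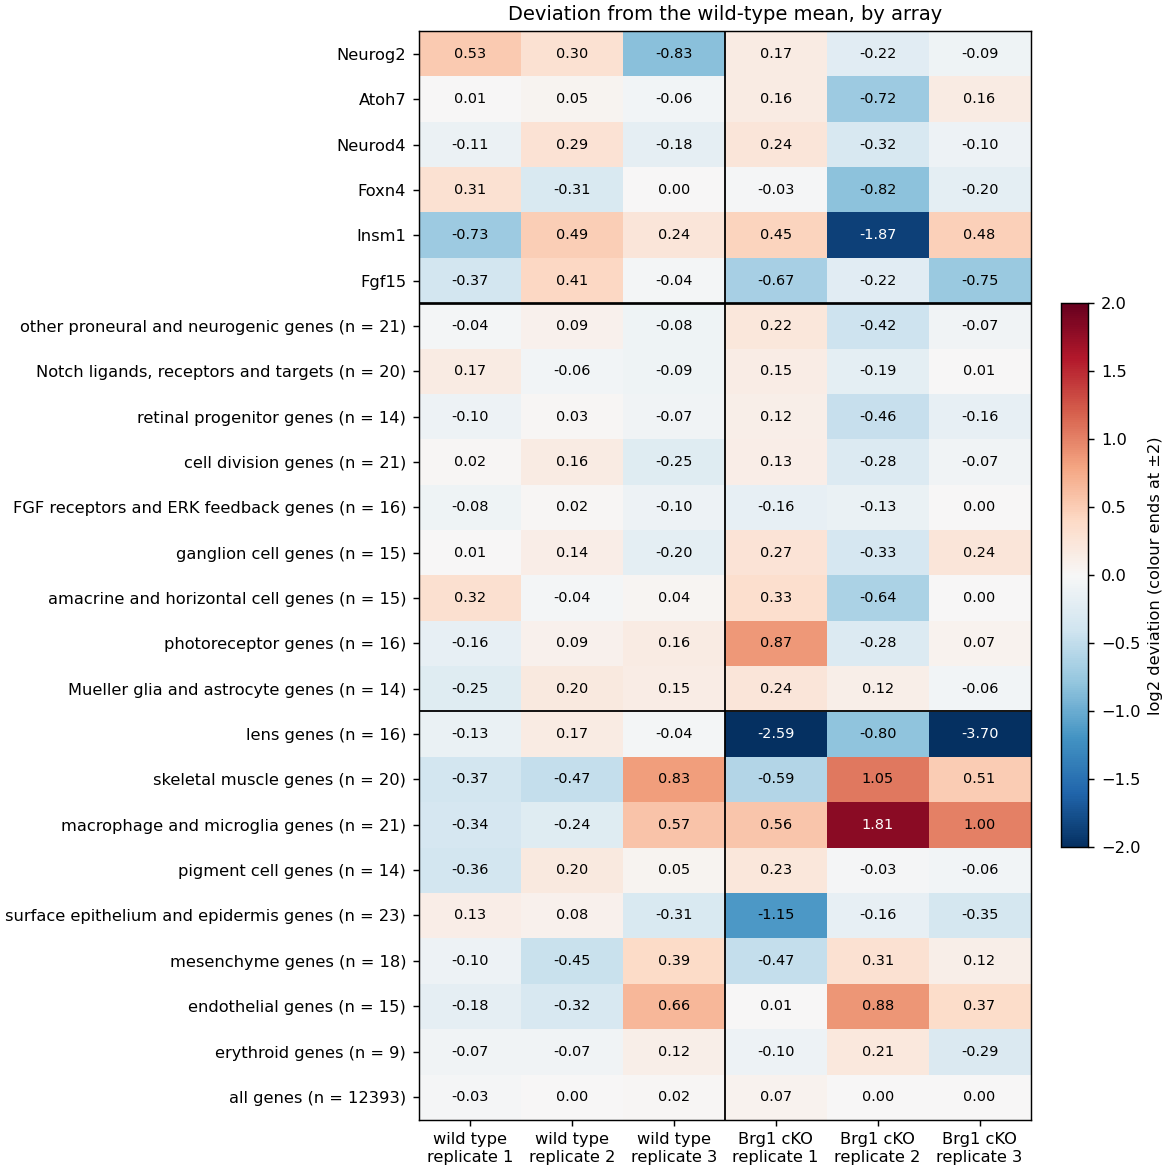
Log2 deviation of each array from the wild-type mean (columns are arrays; each wild-type array is set against the other two) for the 6 genes and the median of each gene list, with n genes measured. Brg1 cKO replicate 2 is the lowest column for most retinal neuron lists and the highest for the muscle, macrophage and endothelial lists, and the lens row is lowest in Brg1 cKO replicates 3 and 1.

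Other tissues of the eyeball moved with the same arrays. The median of 16 lens genes was at -2.59, -0.80 and -3.70 in replicates 1 to 3 of Brg1 cKO, relative to wild type. Replicate 2 was the least low there, as it was for Fgf15, whose replicates 1 and 3 were close together at -0.67 and -0.75. The summed intensity of the lens genes was 154942 to 172791 in wild type and 24941 to 100446 in Brg1 cKO. The median of 21 macrophage and microglia genes lay at 0.56, 1.81 and 1.0, with a summed intensity of 5526 to 7751 in wild type and 10994 to 25210 in Brg1 cKO. The median of 20 skeletal muscle genes lay at -0.59, 1.05 and 0.51, and that of 15 endothelial genes at 0.01, 0.88 and 0.37. Thus, replicate 2 of Brg1 cKO had the least signal for 4 of the 6 genes and the most signal for macrophage, muscle and endothelial genes. The summed intensity of muscle genes was 48705 to 83588 in wild type and 39659 to 102839 in Brg1 cKO, and that of endothelial genes was 4408 to 5957 and 4443 to 7512. No lens, muscle or endothelial gene and 1 macrophage gene had a mean over all 6 arrays under the 25th percentile. The gap between 3′ and 5′ probe sets of the actin control, a sign of RNA integrity and amplification, was 0.93 to 1.12 on the wild-type arrays and 1.28, 1.34 and 0.98 on those of Brg1 cKO. The same gap for the Gapdh control was largest on Brg1 cKO replicate 2, at 1.05, and ran from 0.73 to 0.87 elsewhere. When limma weighted the arrays, that array also had the lowest weight, 0.46, and the remaining weights ran from 0.82 to 1.51. The part of these tissue and array differences in the values of the 6 genes was not tested.

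Set against the progenitor genes of the same array, part of the drop in Brg1 cKO replicate 2 was shared. The median of 14 retinal progenitor genes lay at 0.12, -0.46 and -0.16 in Brg1 cKO replicates 1 to 3. Relative to that median, replicate 2 was at 0.25 for Neurog2, -0.26 for Atoh7, 0.15 for Neurod4 and -0.36 for Foxn4. Insm1 stayed low there, at -1.40, while it was at 0.33 and 0.64 in replicates 1 and 3. Fgf15 was at -0.79, 0.25 and -0.58, so it was below the progenitor genes in replicates 1 and 3 and above them in replicate 2. The progenitor list held 11 of 14 genes with a lower mean in Brg1 cKO, a median difference of -0.17 and no called gene. Without replicate 2 these were 9 genes and a median of -0.04. Its smallest p belonged to Sox2, a factor that keeps progenitors undifferentiated, at 10.22, 10.42 and 10.30 in wild type, against 9.65, 9.34 and 10.09 in Brg1 cKO. All Brg1 cKO eyeballs lay below the wild type there, with a difference of -0.62 and an SE of 0.22 (limma adjusted p = 0.507). Pax6, which gives progenitors their competence for many neuron types, was 12.26, 11.12 and 11.83 in Brg1 cKO against 12.03, 12.09 and 12.09, again with its lowest value in replicate 2. The study also found Pax6 protein in the lens epithelium, so the progenitor list is not specific to the retina. The tissue source of its signal was not measured.

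**Figure D4:**
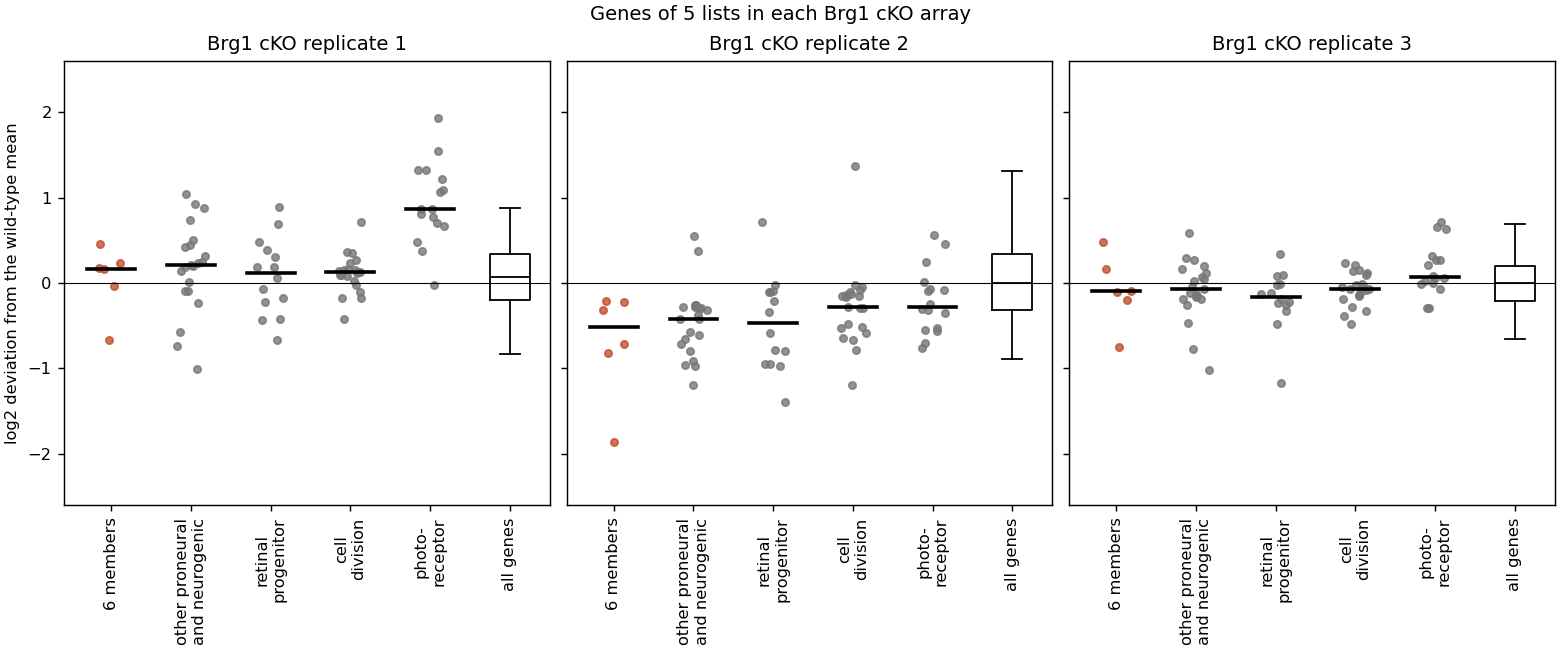
Log2 deviation from the wild-type mean (y axis) of single genes in each Brg1 cKO eyeball, for the 6 genes and 4 lists; bars give medians, and the box for all genes gives the median and quartiles with whiskers at the 5th and 95th percentiles. In Brg1 cKO replicate 2 the medians of all 5 groups lie below 0, and in replicate 1 the photoreceptor median lies at 0.87.

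The wider set of proneural and neurogenic genes also had no call. Of 24 such genes 21 were measured, 13 had a lower mean in Brg1 cKO and 8 a higher one, and the median difference was -0.13, against 0.02 over all genes. The lowest array for 13 of the 21 was Brg1 cKO replicate 2, and without it the median difference was 0.03. Of the 21 genes, 4 had a mean under the 25th percentile, and with dim probe sets filtered out the median difference was -0.07. Neurod1, a factor of photoreceptors and amacrine cells, was 11.84, 12.15 and 11.51 in wild type, against 11.97, 11.54 and 11.76 in Brg1 cKO. Hes6, which acts downstream of proneural factors and promotes differentiation, was 13.04, 12.94 and 13.00 against 13.00, 12.57 and 13.01, so that only replicate 2 stood apart. Ptf1a, which acts downstream of Foxn4 in amacrine and horizontal cells, was 7.92, 8.40 and 7.87 against 8.27, 7.27 and 8.18, low in the same eyeball as Foxn4. Rgs16, a regulator of G-protein signalling, was the gene of this list with the smallest p. It was 7.16, 7.44 and 7.37 in wild type, against 8.24, 7.88 and 7.90 in Brg1 cKO, with no overlap, a difference of 0.69 and an SE of 0.19 (limma adjusted p = 0.285). The next 3 genes by p had lower means in Brg1 cKO, and none passed. The differences were -0.74 for Neurod2, -0.66 for Sox11 and -0.64 for Onecut1, with limma adjusted p of 0.599, 0.622 and 0.725.

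Notch signalling, which proneural factors feed through their ligands, had no called gene among 20 measured. The median difference of its ligands, receptors and targets was -0.03, with 11 genes lower and 9 higher in Brg1 cKO. Dll1, the main ligand of newborn retinal neurons, was 9.50, 9.65 and 9.16 in wild type, against 9.80, 9.47 and 9.60 in Brg1 cKO. Hes5, a Notch target in progenitors, was 10.24, 10.03 and 9.77 against 10.39, 9.80 and 9.77, with a difference of -0.03 and an SE of 0.24 (limma adjusted p = 0.987). The groups of both genes overlapped. Jag1, a ligand with a known role in the lens as well, had the smallest p of the list. Its values were 6.41, 7.49 and 7.52 in wild type, against 5.57, 5.76 and 6.21 in Brg1 cKO, which did not overlap, but the difference of -1.29 with an SE of 0.34 did not pass (limma adjusted p = 0.265). Notch2, a receptor, had a difference of -0.39 (limma adjusted p = 0.625), and Numbl, related to the Notch inhibitor Numb, one of 0.51 (limma adjusted p = 0.66).

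Receptors and feedback genes of FGF signalling, the pathway of Fgf15, had no called gene among 16 measured either. Their median difference was -0.16, with 11 lower and 5 higher in Brg1 cKO, and it was -0.16 also without Brg1 cKO replicate 2. Of the 16 genes, 3 had a mean under the 25th percentile. The feedback genes that ERK signalling turns on overlapped between groups. Dusp6, a phosphatase that limits ERK, was 10.80, 11.06 and 11.25 in wild type, against 10.78, 10.79 and 11.00 in Brg1 cKO, and Spry2, another inhibitor of the pathway, was 11.66, 12.12 and 11.86 against 11.78, 11.79 and 11.64. Of the receptors, Fgfr1 overlapped too, with a difference of -0.11 and an SE of 0.22 (limma adjusted p = 0.929). Fgfr3 was 8.38, 8.94 and 8.55 in wild type, against 6.96, 7.76 and 6.88 in Brg1 cKO, with a difference of -1.43 and an SE of 0.28 (limma adjusted p = 0.126). Its Brg1 cKO values stood in the order of the lens genes, least low in replicate 2. Fgfr2 did not overlap either, with a difference of -0.77 (limma adjusted p = 0.243). Fgfr4, the receptor through which Fgf15 acts in the liver, was 4.28, 4.32 and 4.47 in wild type, under the 25th percentile, and 5.63, 5.98 and 5.39 in Brg1 cKO. Its difference of 1.31 with an SE of 0.20 missed the threshold (limma adjusted p = 0.0533). Fgf1 had a difference of -1.03 (limma adjusted p = 0.599).

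Genes of dividing cells and of the neurons that the 6 factors help to make were measured in the same arrays. Of 21 cell division genes 17 had a lower mean in Brg1 cKO, with a median difference of -0.09 and no call, and 8 did without Brg1 cKO replicate 2. Mki67, a marker of cycling cells, was 11.68, 11.70 and 11.70 in wild type, against 11.85, 11.61 and 11.62 in Brg1 cKO. The lowest p among them belonged to Rrm2, a subunit of ribonucleotide reductase, with a difference of -0.36 (limma adjusted p = 0.668). The next by p were Mcm2 at 0.63, Aurkb at -0.46 and Cdk1 at -0.24 (limma adjusted p = 0.764, 0.779 and 0.801). Of 15 ganglion cell genes, the cells that depend on Atoh7, none was called and the median difference was 0.08. It was 0.24 without Brg1 cKO replicate 2, when 1 of the 15 genes had a lower mean in Brg1 cKO, and -0.06 without Brg1 cKO replicate 3. The smallest p there belonged to Dlx2, at -0.71 (limma adjusted p = 0.57). The next by p were higher in Brg1 cKO: Irx4 at 0.54, Thy1 at 0.54 and Ebf1 at 0.37 (limma adjusted p = 0.687, 0.705 and 0.81). The lowest array for 10 of the 15 ganglion cell genes was Brg1 cKO replicate 2. It was also the lowest for 12 of the 21 cell division genes and 8 of the 14 progenitor genes, against 25.5% of all genes.

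Amacrine and horizontal cell genes, the lineages of Foxn4, were the only list of retinal neurons with calls. Of 15 measured genes 1 rose and 1 fell, where 0.508% of all probe sets were called, and the median difference was -0.03. By the unadjusted limma p 5 of the 15 passed 0.05, where 8.4% of all probe sets did. Calb1, a calcium-binding protein of horizontal and amacrine cells, was 5.33, 5.66 and 5.63 in wild type, against 7.97, 7.18 and 7.48 in Brg1 cKO, and rose by 2.0 on the log2 scale (limma adjusted p = 0.0217). Prox1, a factor of horizontal cells that is also a factor of lens fibres, was 6.64, 6.94 and 6.83 against 5.15, 4.63 and 5.19, and fell by 1.82 (limma adjusted p = 0.021). Among the 14 alternative limma settings, sex as a covariate and leaving out Brg1 cKO replicate 1, the only male, gave the same result. Calb1 passed in 8 and Prox1 in 9 of the 14. Both passed without Brg1 cKO replicate 1 or 2, and neither passed without any 1 of the wild-type arrays or without Brg1 cKO replicate 3 (limma adjusted p up to 0.14 and 0.112). The differences ran from 1.70 to 2.18 for Calb1 and from -1.92 to -1.42 for Prox1 over those settings. Both genes are also expressed in eye tissues outside the retina, and their source was not measured. For 9 of the 15 genes, 60.0%, the lowest array was Brg1 cKO replicate 2. That share was 57.1% for cell division genes, 57.1% for progenitor genes, 35.0% for Notch genes and 31.2% for photoreceptor genes, so it was not particular to the lineages of Foxn4.

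By their profile over the 6 arrays, 5 other genes were most like the mean of the 6 genes' centred profiles, among 1862 genes with an SD of at least 0.5. The 5 genes were Lrrc49 with r = 0.99, Elovl4, an elongase of very long fatty acids in photoreceptors, with r = 0.974, Mtnr1a, a melatonin receptor, with r = 0.959, the potassium channel gene Kcnk2 with r = 0.959 and Apom with r = 0.954. Each of them was lowest in Brg1 cKO replicate 2, which follows from their selection, because the mean profile of the 6 genes was itself lowest there. Lrrc49 was 6.69, 7.61 and 6.21 in wild type, against 7.28, 4.17 and 6.66 in Brg1 cKO, and Elovl4 was 9.59, 10.19 and 9.72 against 10.08, 8.74 and 9.77. The profiles were not scaled, so Insm1, with the widest range of the 6 genes, counted most in the mean. Fgf15 did not share that profile, with r of -0.27 to 0.03 with the other members. Likeness was measured over 6 arrays that share those differences in tissue signal, and it is given as a description.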

How the data were processed

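Total RNA (50 ng per eyeball) was amplified and hybridised to 1 array per eyeball. The deposited values are RMA intensities on a linear scale, background-corrected, quantile-normalised and summarised per probe set by the authors with a version not given in the sources used here. They were converted to log2 here, and 64 of 22690 rows, which hold controls, were left out. Of the 22626 probe sets kept, 20380 had 1 gene symbol in the platform annotation, 691 several and 1555 none. Log2 values of 3 Brg1 cKO and 3 wild-type arrays were compared with limma 3.58.1 in R 4.3.3 (lmFit and eBayes, genotype as the only term), with Benjamini-Hochberg adjustment over all 22626 probe sets and a threshold of 0.05. A log2 difference is Brg1 cKO minus wild type. The number of arrays limits the precision, and p-values measure the spread between single eyeballs, and the study's methods state that the wild-type pups were littermates. RMA puts each array on the same distribution, so a shift shared by all genes would not be seen, and levels of different probe sets were not compared.

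The members and gene lists were chosen with earlier results of these data known, so no list was tested as a set and lists are given as counts and medians. Named genes were the 6 members, Smarca4 and the 5 genes of most similar profile. From each retinal or pathway list they were the called genes, or otherwise 1 or more of the 4 genes with the smallest p. Neurod1, Hes6, Ptf1a, Dll1, Hes5, Fgfr1, Dusp6, Spry2 and Mki67 were added for their roles after their values were seen. Template matching was the correlation of a probe set with the group labels, with a p under 0.05 and a fold over 1.5. Promoter sequences are RefSeq's, and matches were counted on both strands in the 250 bases before each start. The fits were tested on simulated data.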

Additional observations from a re-analysis of the deposited data

How the results depend on the processing

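None of the 6 genes was called in any of the 14 alternative limma settings, by template matching or by the unadjusted p with a fold over 1.5. The settings are not all separate checks: sex as a covariate gave the same result as leaving out Brg1 cKO replicate 1, the only male. Over all probe sets the main count of 115 was 32 with an offset of 16 added before the log2, 190 with array weights, 45 with the replicate number as a block, 820 by template matching and 1467 by the unadjusted p with a fold over 1.5, and 24 to 216 when 1 array was left out: leaving out wild-type replicate 1, 2 or 3 gave 24, 26 or 36, leaving out Brg1 cKO replicate 2 gave 216 and replicate 3 gave 53. The median difference of the 6 genes went from -0.38 to 0.05 when 1 array was left out, the latter without Brg1 cKO replicate 2. Some differences near 0 changed sign. Neurog2 was 0.01 with array weights and -0.32 to 0.13 when 1 array was left out, being above 0 without wild-type replicate 1 (0.13), wild-type replicate 2 (0.06) or Brg1 cKO replicate 2 (0.04). Insm1 was 0.01 with array weights and -0.71 to 0.47 when 1 array was left out, the latter without Brg1 cKO replicate 2. Neurod4 was 0.54 by its other probe set and -0.21 to 0.07 when 1 array was left out, being above 0 without wild-type replicate 2 (0.04) or Brg1 cKO replicate 2 (0.07). Atoh7 was -0.28 to 0.16, above 0 when the same Brg1 cKO array was left out. The cause was not tested. Same-numbered arrays deviated together with r of 0.06, 0.08 and 0.13, and not every array was closest to its own number, so the numbers were not taken as pairs. The block called none of the 6 genes and neither Calb1 nor Prox1 (adjusted p = 0.0859 and 0.0815), and Calb1 also missed with the offset (0.0749). The amacrine and horizontal cell median was -0.47 without Brg1 cKO replicate 1, and the other 135 of 136 alternative list medians moved by less than the spread between replicates.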

Other observations

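Of 16 photoreceptor genes measured, 15 had a higher mean in Brg1 cKO and 1 a lower one, with a median difference of 0.24. No photoreceptor gene was called by limma, and none had an unadjusted p under 0.05. Their median lay at 0.87 in Brg1 cKO replicate 1, the only male pup, at -0.28 in replicate 2 and at 0.07 in replicate 3, the order of eyeballs that the 6 genes' own medians of 0.17, -0.52 and -0.10 had. Without replicate 1 the median difference was -0.02. Of the 16 genes, 4 had a mean under the 25th percentile, and with dim probe sets filtered out the median difference was 0.35. Crx, the factor that turns on photoreceptor genes, was 10.50, 10.60 and 10.43 in wild type, against 11.22, 10.26 and 10.72 in Brg1 cKO. Opn1sw, the short-wavelength cone opsin, was 9.01, 9.15 and 8.92 against 10.12, 8.26 and 9.74, so that 1 Brg1 cKO eyeball lay below and 2 lay above all wild-type eyeballs. The largest difference was that of Pde6c, a cone phosphodiesterase, at 0.75 with an SE of 0.58 (limma adjusted p = 0.808). Crx and Opn1sw were chosen after their values were seen.

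Müller glia and astrocyte genes had a median difference of 0.09 over 14 genes, with 10 higher and 4 lower in Brg1 cKO and none called by limma (1 at an unadjusted p under 0.05). That gene was Aldh1l1, with a difference of -1.17 (limma adjusted p = 0.363) and groups that did not overlap. The next by p were Kcnj10 at 0.57, Car2 at -0.45 and Pdgfra at 0.53 (limma adjusted p = 0.658, 0.66 and 0.668). The lowest array for 13 of 21 other proneural genes, Brg1 cKO replicate 2, was the lowest for 4 of the 14 Müller glia and astrocyte genes.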
